A study of Homo sapiens with 6 samples.

Results

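Keratins are the intermediate filament proteins of epithelial cells, and each filament is built from pairs of a type I (acidic) and a type II (basic) keratin. Simple epithelia such as hepatocytes use mainly KRT8 with KRT18, bile duct cells add KRT7 and KRT19, and the epidermis and the hair follicle use other pairs. KRT75 is a type II keratin known from the companion layer of the hair follicle and is not one of the keratins by which liver cells are recognised.

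The RNA of 10 keratin genes was followed in HepG2 cells, which derive from a human liver tumor: KRT75, KRT7, KRT8, KRT10, KRT18, KRT19, KRT23, KRT80, KRT81 and KRT86. All 10 were found by name in the deposited table of 57773 genes, which lists 55 keratin genes, and the other 45 served for comparison. KRT75 was picked because it had reads with TGFβ and none with vehicle, and the 9 others were picked with their reads in the same cultures known. Their differences between vehicle and TGFβ are therefore given as descriptions, and nothing is read from the calls that a fit across all genes made for them. KRT17, with more reads than KRT7, was not among the 10 and is given with the other keratins.

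RNA was sequenced from 6 HepG2 cultures grown in MEM with serum. After attaching overnight, 3 cultures received human recombinant TGFβ1 at 5 ng/mL and 3 received vehicle, both for 3 h, which the methods of the study place in medium without serum. The cultures carry the numbers 1 to 3 in each group. Cultures 1 and 2 were sequenced on the lane of their partner, and cultures 3 on 2 different lanes. Between 60815385 and 100099136 reads per culture fell on genes. Liver markers were present in every culture, since each of the 10 hepatocyte markers (among them ALB, APOA1 and HNF4A) had at least 2303 reads in every culture. The known TGFβ targets SMAD7, SKIL and PMEPA1 were all higher with TGFβ, with log2 fold changes from 1.72 to 4.30. All cultures are of a single cell line, and in such bulk RNA more cells with a transcript and more RNA per cell cannot be told apart.

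The 250 bases before the annotated start of KRT75 are shown because this gene went from no reads to reads. The sequence comes from RefSeq (GRCh38.p14), where 3 of the 10 genes were matched (KRT75, KRT8 and KRT10). It runs 5′ to 3′ on the coding strand and ends at the base before the start. Capitals mark CATAAA, a variant of the TATA box.
KRT75: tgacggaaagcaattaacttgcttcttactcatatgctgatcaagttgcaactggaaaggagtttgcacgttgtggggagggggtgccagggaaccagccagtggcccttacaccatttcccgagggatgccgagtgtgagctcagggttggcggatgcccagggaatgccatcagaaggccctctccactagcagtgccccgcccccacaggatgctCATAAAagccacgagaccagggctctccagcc
It spans chr12:52434372-52434621 of GRCh38.p14 on the minus strand. Each motif was searched on both strands. The SMAD core was searched as CAGAC. The AP-1 site was searched as TGANTCA. The TATA box was searched as TATAAA, and its variant as CATAAA, which was added after the KRT75 sequence had been seen. KRT75 held CATAAA once, beginning 32 bases before the start, and 0 SMAD core, 0 AP-1 and 0 TATA matches. Of 35116 RefSeq windows of this length, 38.0% held the SMAD core, 6.57% AP-1, 10.7% a TATA box and 9.64% its variant. The same search found 1 SMAD core match in the single window of KRT8, at chr12:52926470-52926719 of GRCh38.p14. KRT8 has 10 annotated coding transcripts, so this window need not lie before the start used in these cells. KRT10 held 1 TATA box and 1 match of its variant, and neither gene held other matches. Motifs outside these 250 bases of each gene were not searched.

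KRT75 (ENSG00000170454) lies in the type II keratin cluster, at chr12:52817854-52828309 of hg19 on the minus strand, and has 9 exons. The table's row reaches past the KRT75 start that GENCODE gives, at position 52828155, so the bases printed above may lie partly within that row. It had 0 reads in each of the 3 vehicle cultures. It had 83, 153 and 135 reads in TGFβ cultures 1, 2 and 3. Every TGFβ culture was thus above every vehicle culture, and culture 1, the most deeply sequenced, had the fewest KRT75 reads. Scaled to library size, its level in TGFβ cultures 1, 2 and 3 was 0.857, 1.90 and 1.85 CPM (counts scaled to library size). With 0 reads among the 229585182 of the vehicle group, a count of 3 reads sets a limit of 0.0129 CPM. The summed KRT75 reads of the TGFβ group stood 115-fold above this floor. With the counting error of the TGFβ reads included, the exact 95% interval of the scaled ratio of summed reads began at 93.1. Both values leave out the spread between cultures. KRT75 was picked for this very difference, so they are descriptions and no test of it. KRT75 remained a rare transcript in the TGFβ cultures, at 0.532 ± 0.204 RPKM (SD, n = 3), the deposited level scaled to coding length and library size.

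The reads of KRT75 could in principle come from a related keratin, because members of the type II cluster resemble each other. Of the 2120 different windows of 51 bases, the read length, in the annotated KRT75 transcripts, 176 (8.3%) also occurred in a transcript of another gene. All 176 were shared with ENSG00000257500, a row that overlaps KRT75 and had 0 reads in every culture. How reads in the overlap were counted is unknown here. KRT75 shared 0 such windows with KRT6A, KRT6B, KRT6C or KRT5, its neighbors in the cluster. Among themselves KRT6B and KRT6C shared 990 windows, which was 34.4% of those of KRT6C. Reads with mismatches were not considered in these counts.

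Within 100 kb of KRT75 the table lists 11 other rows. Of these, 5 had 0 reads in all 6 cultures, and together the 11 rows held 15 reads with vehicle and 39 with TGFβ. KRT5, the basal type II keratin of the epidermis, had 1 read with vehicle and 13 with TGFβ, all 13 of them in culture 1. KRT6C was read 12 times in the vehicle group and 14 times in the TGFβ group. KRT6B was read 0 times and 7 times. The hair keratins KRT82 and KRT85 had 0 reads, and KRT84 had 1. None of the 11 rows passed the filter on low counts, so none was tested.

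**Figure D1:**
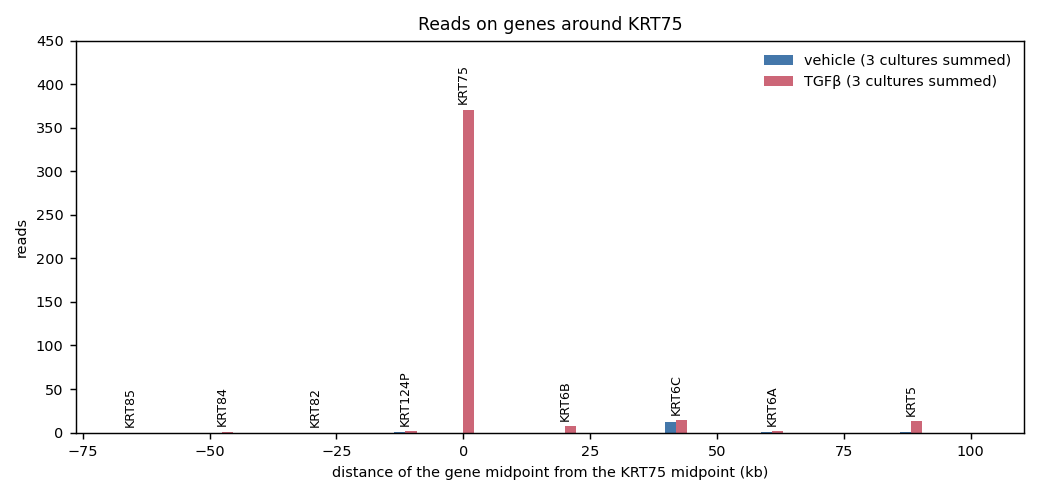
Reads on the genes within 100 kb of KRT75, placed by the distance of their midpoint from that of KRT75 (kb), with the 3 cultures of each group summed (blue bars, vehicle; red bars, TGFβ). KRT75 reached 371 reads with TGFβ and 0 with vehicle, while no neighbor exceeded 14 reads in a group; only rows named KRT are labelled.

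KRT75 and KRT5 also occur in hair follicle and epidermis, so markers of these tissues were counted over the same cultures. Their summed level, KRT5 included, was between 0.736 and 1.32 CPM in the vehicle cultures and between 0.933 and 1.04 CPM in the TGFβ cultures, ranges that overlap. Of the 17 markers, 4 passed the filter on low counts and 0 were called in edgeR's quasi-likelihood test, with 0 at an unadjusted P under 0.05 and 0 called in the blocked fit. Of all 22747 tested genes, 4.12% were called, 3107 had such an unadjusted P and 11.8% were called in the blocked fit. KRT14, the partner of KRT5, was read 2 times with vehicle and 4 times with TGFβ. IVL, a precursor of the cornified envelope, and TCHH, a protein of the inner root sheath, had 0 reads in every culture.

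The genes whose pattern over the 6 cultures was most like that of KRT75 were named by Pearson's r on log2 CPM. The first 5 were RP11-529K1.4 (r = 0.998), LDLRAD4 (r = 0.998), RND1 (r = 0.997), SDC4 (r = 0.996) and IQCJ-SCHIP1 (r = 0.996). Since KRT75 was at 0 in all vehicle cultures, these values mainly rank the genes by an even step between the groups, and they are descriptions over 6 cultures. LDLRAD4 is known as an inhibitor of TGFβ signaling, and SDC4 is a cell surface heparan sulfate proteoglycan. Unlike KRT75, each of the 5 was also read with vehicle, at mean levels between 0.871 CPM (IQCJ-SCHIP1) and 222.7 CPM (SDC4).

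KRT80 (ENSG00000167767, chr12:52562780-52585784, minus strand), a type II keratin found in many epithelia, was higher with TGFβ in all 3 numbered pairs. It had 917, 667 and 400 reads in the vehicle cultures. It had 1778, 1638 and 1021 reads in the TGFβ cultures. The groups did not overlap after scaling, with 8.31 ± 1.96 CPM (SD, n = 3) with vehicle and 17.6 ± 3.25 CPM (SD, n = 3) with TGFβ. The fitted log2 fold change was 1.08 (standard error 0.19), or 2.11-fold, and the ratio within the numbered pairs was 1.77, 2.53 and 2.16. KRT80 shared only 0.340% of its 51-base windows with another gene.

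KRT7 (ENSG00000135480, chr12:52626304-52645970, plus strand), the type II keratin of bile ducts and other ductal epithelia, had very few reads. There were 14, 12 and 18 in the vehicle cultures. There were 45, 50 and 30 in the TGFβ cultures. All TGFβ cultures lay above all vehicle cultures, although vehicle culture 3 at 0.292 CPM and TGFβ culture 3 at 0.412 CPM were close. The log2 fold change was 1.36 (standard error 0.34), and the ratio within pairs ranged from 1.41 in number 3 to 4.29 in number 2. The overlapping antisense row RP3-416H24.1 had 24 reads with vehicle and 44 with TGFβ, and the use of strand in counting is not given in the sources used here.

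KRT81 and KRT86 are type II keratins of the hair cortex and lie next to each other in the cluster. KRT81 (ENSG00000205426, chr12:52679697-52685318, minus strand) had 3, 8 and 2 reads with vehicle. It had 8, 16 and 26 reads with TGFβ. The groups overlapped in CPM, and the scaled ratio of the summed reads was 3.58, with an exact 95% interval from 1.91 to 7.18 for counting error only. KRT86 (ENSG00000170442, chr12:52643084-52702947, plus strand) had 0, 0 and 2 reads in the vehicle cultures. It had 3, 0 and 3 reads in the TGFβ cultures. The scaled ratio was 2.79, with an interval from 0.499 to 28.3, again for counting error only, and nothing is read from so few reads. Neither gene passed the filter. They shared 716 of their 51-base windows, 38.1% of those of KRT81 and 30.2% of those of KRT86, and the KRT86 row spans the whole of KRT81, so their reads are uncertain between them.

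**Figure D2:**
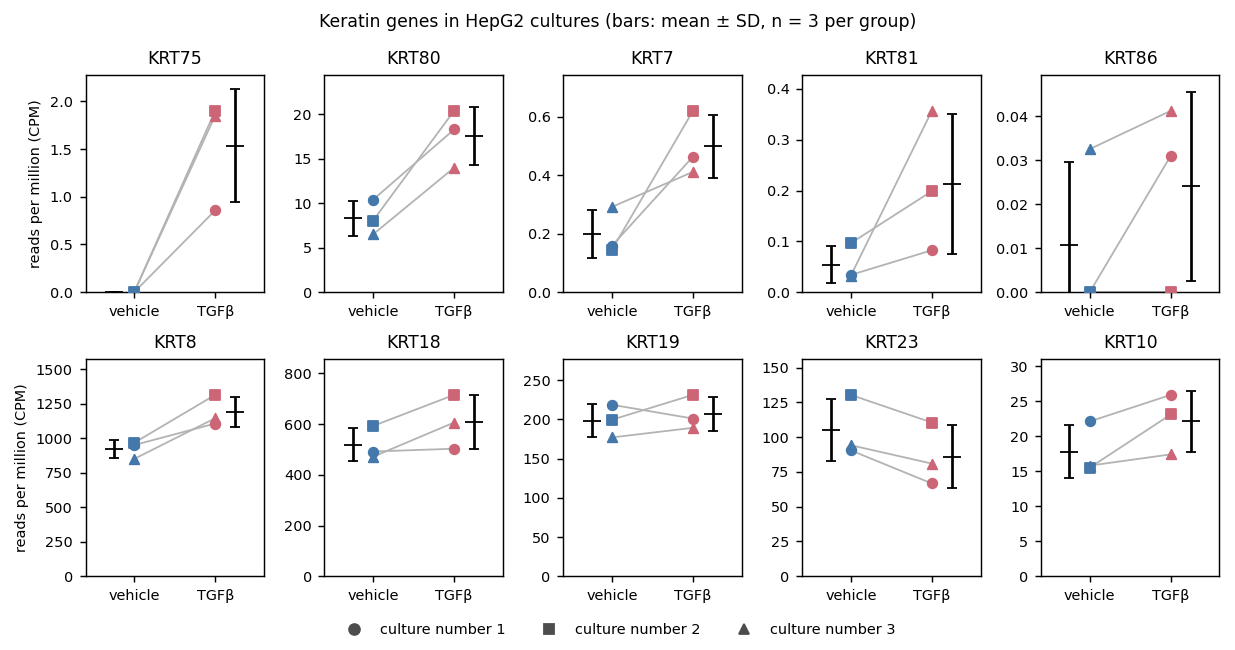
Level of each of the 10 keratins (CPM, each panel with its own axis from 0) in the vehicle cultures (blue) and TGFβ cultures (red), with lines joining cultures of the same number and black bars for the mean ± SD (n = 3). KRT75, KRT80, KRT7 and KRT8 show no overlap between the groups, and KRT23 is lower with TGFβ in all 3 numbered pairs while its groups overlap.

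The keratins that made up most of the keratin RNA differed far less between the groups. KRT8 (ENSG00000170421, chr12:53290977-53343738, minus strand), the type II keratin of simple epithelia, had 949.7, 965.7 and 849.2 CPM with vehicle. It had 1105.7, 1313.2 and 1144.0 CPM with TGFβ. Its groups did not overlap, and its log2 fold change was 0.37 (standard error 0.09), or 1.29-fold. The ratio within the numbered pairs was 1.16, 1.36 and 1.35.

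KRT18 (ENSG00000111057, chr12:53342655-53346685, plus strand), the type I partner of KRT8, had 492.2, 592.9 and 471.5 CPM with vehicle. With TGFβ it had 503.2, 715.7 and 606.6 CPM. These groups overlapped, since TGFβ culture 1 was below vehicle culture 2, but within pairs the ratio was 1.02, 1.21 and 1.29. The log2 fold change was 0.23 (standard error 0.13). KRT8 and KRT18 stand head to head and overlap in the table, and they shared 425 windows of 51 bases, which was 5.91% of those of KRT8 and 13.3% of those of KRT18. AC107016.2, a row inside KRT18, held 11712 reads with vehicle and 15566 with TGFβ, and how reads on overlapping rows were divided is unknown here.

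Both genes have many processed pseudogenes. The table held 50 rows named as KRT8 pseudogenes and 67 named as KRT18 pseudogenes, with 27645 and 12819 reads over all cultures, which was 5.40% and 4.71% of the reads of the parent genes. Of the 51-base windows, 9.18% for KRT8 and 14.4% for KRT18 were also found in such pseudogenes. How reads with several matches were assigned is not given in the sources used here.

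KRT19 (ENSG00000171345, chr17:39679869-39684560, minus strand), the type I keratin of bile ducts, had 218.5, 199.4 and 176.9 CPM with vehicle and 200.9, 231.1 and 189.1 CPM with TGFβ. The groups overlapped, and TGFβ was higher in 2 of the 3 pairs. Its log2 fold change was 0.06 (standard error 0.10). KRT8 relative to KRT19 in RPKM went from 2.18 ± 0.129 (SD, n = 3) with vehicle to 2.68 ± 0.130 (SD, n = 3) with TGFβ, without overlap between cultures, and was higher in all 3 pairs. KRT8 relative to KRT18 was 1.15 ± 0.0971 (SD, n = 3) with vehicle and 1.27 ± 0.126 (SD, n = 3) with TGFβ. These values overlapped between groups, and they too were higher in all 3 pairs (1.24 and 1.41, 1.05 and 1.18, 1.16 and 1.21).

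KRT10 (ENSG00000186395, chr17:38974369-38978847, minus strand), a type I keratin of the upper epidermis, had 22.1, 15.5 and 15.8 CPM with vehicle and 25.9, 23.1 and 17.4 CPM with TGFβ. The groups overlapped, and the ratio within pairs was 1.18, 1.49 and 1.11. TMEM99, a row that overlaps KRT10, had 4521 reads with vehicle and 5173 with TGFβ, about as many as KRT10. KRT23 (ENSG00000108244, chr17:39078948-39093886, minus strand), another type I keratin, was lower on average (log2 fold change -0.29, standard error 0.19), the only negative value among the 8 members that passed the filter. It had 90.5, 130.4 and 94.2 CPM with vehicle. With TGFβ it had 66.7, 110.5 and 81.0 CPM. The groups overlapped because culture 2 was the highest in each group, while the ratio within pairs was 0.737, 0.847 and 0.860. AC004231.2, a row that spans KRT23, had the same log2 fold change of -0.29, and their reads are uncertain between the rows.

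Of the 10 members, 8 passed the filter on low counts. Among these, KRT75 and KRT80 were called higher at a false discovery rate (FDR) under 0.05 in edgeR's quasi-likelihood test and 0 were called lower, where 4.12% of all 22747 tested genes were called, 3.11% higher and 1.01% lower. KRT80 lost its call without vehicle replicate 2. A fit that blocked on the replicate number called 6 higher and KRT23 lower, with KRT19 not called, where 11.8% of all genes were called, 8.08% higher and 3.75% lower. The TGFβ cultures lay above the vehicle cultures without overlap for 4 of the 8, which held for 10.4% of all tested genes, and they lay below without overlap for 0, which held for 8.23%. They were higher in all 3 pairs for 6 of the 8 and lower in all 3 pairs for 1, which held for 23.3% and 20.9% of all tested genes. The members had been chosen on this contrast, so nothing is read from these counts.

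Levels were compared between keratins only per length, as deposited RPKM, which divides by the deposited coding length. That length was 4093 bases for KRT7, 5005 for KRT8 and 3218 for KRT18. Their longest annotated coding transcripts had 1625, 2437 and 1696 bases, while for KRT81 both lengths were 1929. The order thus depends on the length used. With vehicle the order was KRT8 (152.4), KRT18 (133.6), KRT19 (70.2), KRT23 (30.0), KRT10 (6.90), KRT80 (1.58), KRT7 (0.0400), KRT81 (0.0235) and KRT86 (0.00369), with KRT75 at 0. The ranges of KRT7 and KRT81 overlapped, as did those of KRT86 and KRT75, so on the deposited length these neighbors did not differ beyond their spread. Those of KRT8 and KRT18 overlapped between cultures, while within each culture KRT8 was above KRT18. All other neighbors were apart in every culture. With TGFβ the first 6 kept this order, and KRT75 stood seventh at 0.532, above KRT7 at 0.0987 and KRT81 at 0.0878 and without overlap with either neighbor.

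**Figure D3:**
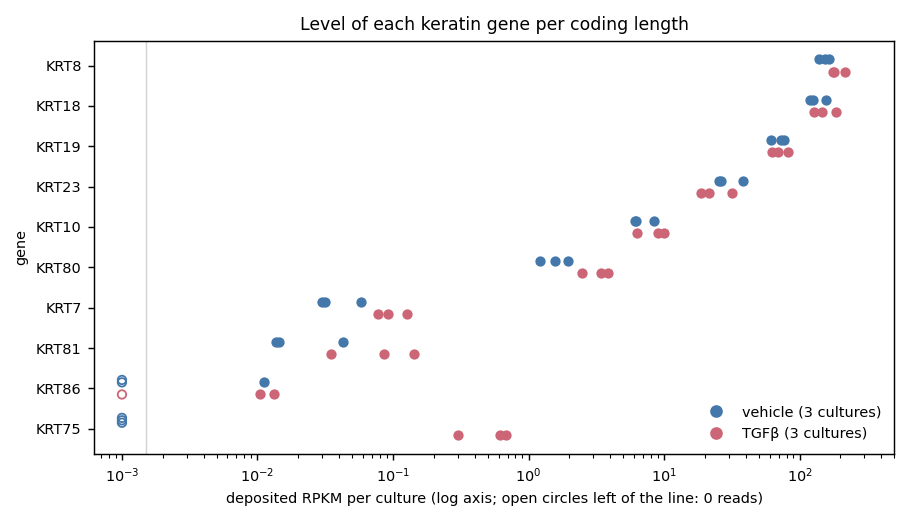
Deposited RPKM of each keratin in every culture (log axis), ordered by the vehicle mean, with vehicle in blue and TGFβ in red and cultures with 0 reads drawn as open circles at the left. Levels span from under 0.02 for KRT86 to over 100 for KRT8 and KRT18, and KRT75 moves from 0 reads to a level between KRT80 and KRT7.

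Of the summed RPKM of all 55 keratin genes, KRT8 made up 38.6% ± 1.16 (SD, n = 3) with vehicle and 42.4% ± 1.41 with TGFβ. KRT18 made up 33.7% ± 1.90 and 33.6% ± 2.21. KRT19 made up 17.8% ± 1.51 and 15.8% ± 1.08, and KRT23 made up 7.55% ± 1.10 and 5.23% ± 0.697. In each numbered pair the share of KRT8 was higher with TGFβ, and the shares of KRT19 and KRT23 were lower. KRT10 followed at 1.76% ± 0.378 and 1.88% ± 0.477. KRT80 made up 0.399% ± 0.0844 and 0.721% ± 0.120. These shares rest on the deposited coding lengths, as the order of levels does. They leave out a second row named KRT222, which is described with the other keratins. With that row KRT8 made up 36.0% ± 0.778 and 39.9% ± 0.903.

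**Figure D4:**
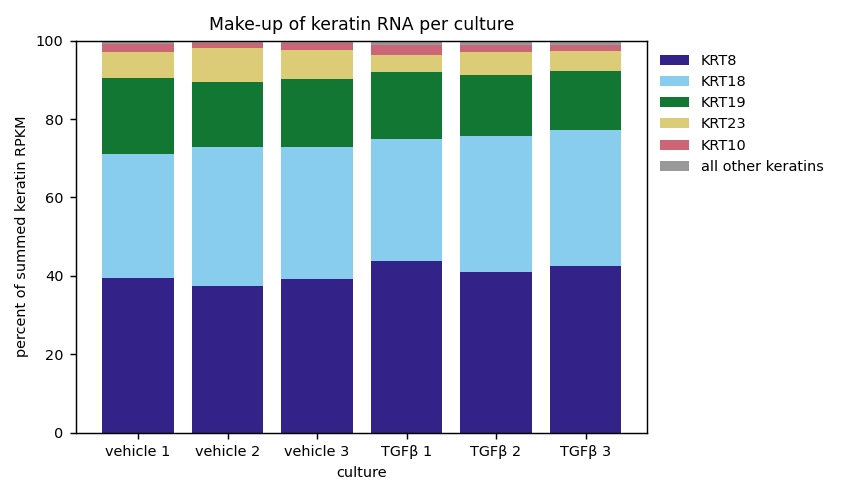
Share of the summed RPKM of 55 keratin genes (percent) held by KRT8, KRT18, KRT19, KRT23, KRT10 and all others, 1 bar per culture. KRT8 takes between 37.3% and 39.4% of each vehicle bar and between 41.0% and 43.8% of each TGFβ bar.

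Most of the other 45 keratins had few reads. In all 6 cultures together 15 had 0 reads and 33, these included, had fewer than 10, and only KRT15, KRT17 and KRT39 passed the filter. KRT222 stands on 2 rows, and the row whose identifier carries the symbol in the reference gene table (ENSG00000213424) had 8 reads with vehicle and 1 with TGFβ. The other row (ENSG00000264058) had 19566 and 22037 reads, overlaps SMARCE1 (33692 and 37266 reads) and was left out of these counts. That row did not pass the test either (log2 fold change 0.06, FDR 0.868). Of the 3 that passed the filter, edgeR called 0 higher or lower, where 4.12% of all tested genes were called. An unadjusted P under 0.05 was reached by 3107 of all 22747 tested genes, and by 1 of the 3. This was KRT17 (ENSG00000128422), a type I keratin of skin appendages and of injured epithelia, which had 1.01, 1.21 and 0.503 CPM with vehicle. It had 1.51, 2.49 and 1.82 CPM with TGFβ. The groups did not overlap, and the log2 fold change was 1.08 (standard error 0.31, FDR 0.107). With the replicate block KRT17 passed (FDR 0.00839), as it did with DESeq2 (FDR 0.0123) and without a filter (FDR 0.0297). KRT17 overlaps the row of JUP and shared 17.4% of its 51-base windows with 11 other genes, most of all with ENSG00000289252 (8.35%), so part of its reads is uncertain.

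KRT15, a type I keratin of basal cells, had 164 reads with vehicle and 140 with TGFβ, a difference that did not pass (log2 fold change -0.34, standard error 0.37). For KRT39 there were 32 and 45 reads, and the log2 fold change was 0.34 (standard error 0.49, FDR 0.857). The most read of those not tested were KRT37, with 33 reads in the vehicle group and 20 in the TGFβ group, and KRT16, with 19 and 24. The median log2 fold change of the 3 tested genes was 0.34, beside -0.00544 for all tested genes.

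Keratin filaments are held at desmosomes and at the cell surface by cadherins, plakins and their linkers, and 21 such genes were followed. Of the 17 that passed the filter, 3 rose with TGFβ and 0 fell at an FDR under 0.05 in edgeR's test, where 3.11% of all tested genes rose. The list was drawn up with earlier results of these data known, so its counts are descriptions, and nothing is read from them beside the shares of all genes. The median log2 fold change of the 17 was 0.12. PLEC (ENSG00000178209), which encodes plectin, a linker between intermediate filaments and other parts of the cytoskeleton, had 174.6, 168.4 and 152.6 CPM with vehicle. It had 354.6, 380.5 and 261.4 CPM with TGFβ. PLEC thus rose 2.01-fold (log2 fold change 1.01, standard error 0.13, FDR 0.00195) without overlap between the groups.

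EVPL (ENSG00000167880), which encodes the plakin envoplakin, had 43.5, 34.0 and 36.4 CPM with vehicle and 83.7, 70.7 and 70.0 CPM with TGFβ. It rose 1.97-fold (log2 fold change 0.98, standard error 0.11, FDR 0.000914). DSC2 (ENSG00000134755), which encodes the desmosomal cadherin desmocollin 2, had 61.7, 70.0 and 65.3 CPM with vehicle and 103.9, 104.7 and 96.5 CPM with TGFβ. It rose 1.55-fold (log2 fold change 0.63, standard error 0.08, FDR 0.00141). In all 3 genes each TGFβ culture was above each vehicle culture, which is no separate support, since they were named for their calls. With MACF1, which was not called (log2 fold change 0.28, FDR 0.161), this held for 4 of the 17. It held for 10.4% of all tested genes. DSP, which encodes desmoplakin, the main anchor of keratin at desmosomes, did not pass (log2 fold change -0.07, standard error 0.10, FDR 0.864).

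With the replicate block, JUP (FDR 0.0222) and PERP (FDR 0.0127) passed as well. This made 5 of the 17 genes higher, again as a description, where 8.08% of all tested genes were higher. JUP encodes plakoglobin and PERP a membrane protein of desmosomes. Without the block their log2 fold changes were 0.27 (standard error 0.11, FDR 0.275) and 0.22 (standard error 0.09, FDR 0.328).

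Of 15 other intermediate filament genes, 8 passed the filter. Of these 8, edgeR called 0 higher or lower, where 4.12% of all tested genes were called. An unadjusted P under 0.05 was reached by 3107 of all 22747 tested genes, and by 2 of the 8. These 2 were NES, which encodes nestin (log2 fold change 0.41, standard error 0.14, FDR 0.169), and SYNM, which encodes synemin (log2 fold change 0.34, standard error 0.09, FDR 0.0740). Both passed with the replicate block, at an FDR of 0.00076 and 0.00486, where 8.08% of all tested genes were called higher. SYNM also passed with DESeq2 (FDR 0.0252). The median log2 fold change of the 8 was 0.12. VIM, which encodes vimentin, the filament of mesenchymal cells, had 0 reads with vehicle and 0, 3 and 1 reads in TGFβ cultures 1, 2 and 3, so it was at the floor in both groups.

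**Figure D5:**
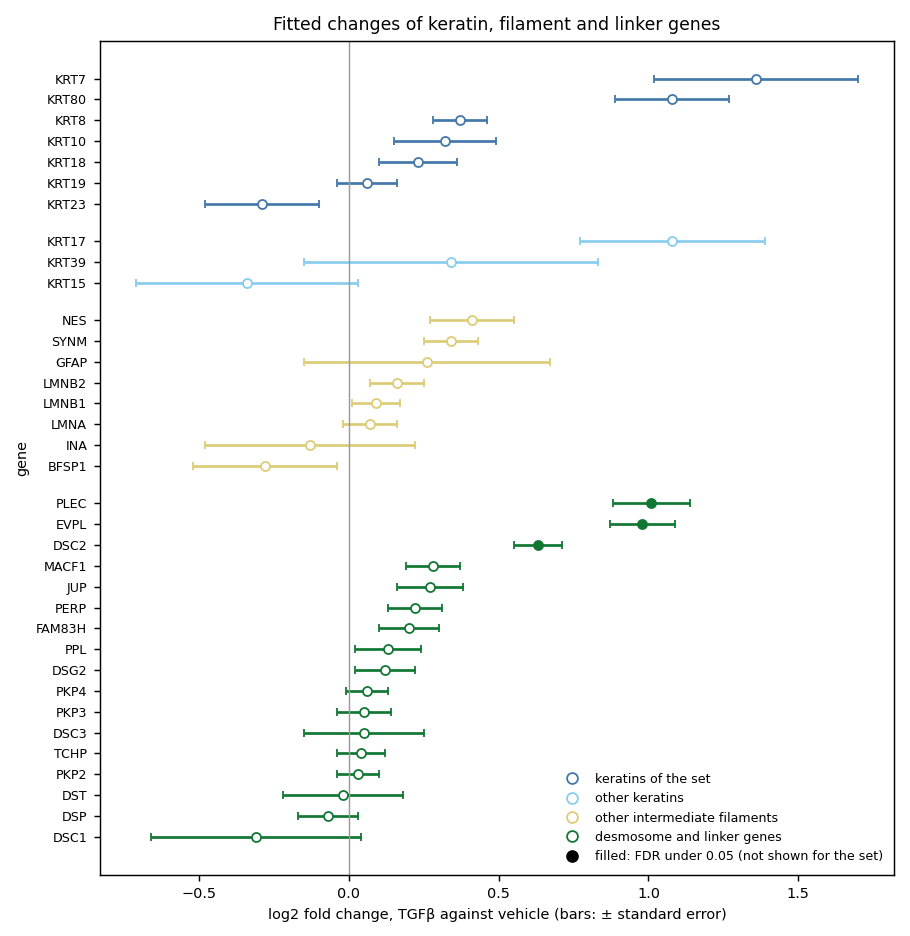
Log2 fold change (TGFβ against vehicle, ± standard error) of the tested keratins of the set, the other keratins, other intermediate filament genes and desmosome and linker genes, filled where the FDR was under 0.05 (calls are not marked for the set). PLEC, EVPL and DSC2 are the filled points; KRT75 is left out, because a fold against 0 reads is only a lower bound.

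KRT7 and KRT19 are also markers of bile duct cells, and other markers of these cells were followed beside them. Of 8 such genes 7 were found in the table by name (all but CD24) and 4 passed the filter. SOX9, a transcription factor of bile duct cells, fell from 240.1 ± 21.2 CPM (SD, n = 3) to 171.6 ± 10.4 CPM (SD, n = 3) (log2 fold change -0.48, standard error 0.09, FDR 0.0108), and EPCAM and SPP1 had log2 fold changes of 0.04 and 0.11. CFTR, AQP1 and MUC1 had at most 7 reads in either group. The summed level of the 7 markers ranged from 1131.7 to 1272.1 CPM with vehicle and from 1083.5 to 1281.6 CPM with TGFβ, and its part in the levels of KRT7 and KRT19 was not tested.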

How the data were processed

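The authors aligned paired reads of TruSeq v2 mRNA libraries to hg19, and the table they deposited gives each gene a raw count and an RPKM per culture, made with MAPRseq; the submitters' processing notes name bcl2fastq, TopHat2 2.0.6 and HTSeq. The deposited counts are whole numbers. The deposited RPKM values are scaled to the table's coding length and to library totals between 1.19 and 1.28 times the reads on genes. For the annotation release, the strand setting and the division of reads between overlapping genes, the sources used here give nothing.

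The labels gave the group and number of each culture, and p-values measure only the spread between these cultures of a single line. Counts were tested with edgeR 4.0.16 (R 4.3.3; TMM, filterByExpr, robust quasi-likelihood F test, no block) with Benjamini-Hochberg adjustment over 22747 genes. Standard errors are those implied by F. CPM values use TMM library sizes, and log2 CPM a prior count of 2. Replicates of a group differed beyond counting noise (chi-square per gene 21.4 to 46.3). Across genes, cultures with the same number deviated together from the mean of their group, with correlations of 0.366, 0.227 and 0.316. Those of other pairs were at most at 0.0101, which is partly forced, since deviations within a group cancel out. Differences are therefore also given within numbered pairs. The main test held no block, and blocked values stand beside the results whose call they alter.

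The members and lists were chosen with earlier results of these data known, so counts of calls in a list are no test of that list. Named were all members, genes called in a list, the 5 other keratins with most reads, rows overlapping a member or within 100 kb of KRT75, the 5 genes most like KRT75 by Pearson's r, and TGFβ targets that check the labels (some listed genes are not reported here); KRT14, IVL, TCHH, DSP, VIM, JUP, PERP, NES, SYNM and markers of bile duct cells were named from the lists after their values were seen. KRT222 and AQP1 stand on 2 rows each, and the row whose identifier carries the symbol in the reference gene table was used; the other AQP1 row held 0 reads. Exons, strands and shared 51-base windows were taken from GENCODE lifted to GRCh37. Alternatives were scaling by total counts or by the size factors of DESeq2, testing without a filter, DESeq2 1.42.0, the replicate block, leaving out each culture, and levels from TMM library sizes.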

Additional observations from a re-analysis of the deposited data

How the results depend on the processing

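With the replicate block, 2690 genes of the whole table were called in place of 937 (1837 higher and 853 lower), 5 desmosome and linker genes in place of 3, 2 other intermediate filament genes in place of 0 and 1 other keratin (KRT17) in place of 0. KRT17 was also the 1 keratin called without a filter and the 1 called by DESeq2, which called 1 other intermediate filament gene (SYNM). With single cultures left out, the count over all genes ranged from 485 (without vehicle replicate 3) to 998 (without TGFβ replicate 3), and it was 518 without vehicle replicate 2 and 561 without TGFβ replicate 2. It was 0 in each such fit for the other keratins and for the other intermediate filaments, and 3 in each for the desmosome and linker genes, which were PLEC, EVPL and DSC2 every time. Total-count scaling split the 933 calls over all genes into 636 higher and 297 lower, and DESeq2 called 1380. As a description, KRT80 ranged from 0.93 to 1.26 on the log2 scale with single cultures left out, KRT7 from 1.16 to 1.71 and KRT23 from -0.52 to -0.11, and KRT19 took values of -0.01 and -0.03 without vehicle replicate 3 and TGFβ replicate 2. The share of KRT8 with vehicle was between 38.2% and 39.3% with single cultures left out, 36.0% with the second KRT222 row (an alternative chosen after seeing the data), and 38.6% from TMM library sizes, with which levels were 1.18 to 1.29 times the deposited RPKM. Depth limits KRT7, KRT81 and KRT86, whose reads per culture were at most 50. The counting rule for overlapping rows limits KRT7, KRT8, KRT10, KRT18, KRT23, KRT81 and KRT86. It also applies to KRT75, whose overlapping row ENSG00000257500 had 0 reads in every culture.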
